A study of Mus musculus with 36 samples.

Results

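The cytosolic ribosomal proteins were followed at the mRNA level in a mouse pre-B cell line while the transcription factor Ikaros was moved into the nucleus. Their genes were taken by name: every row of the expression table whose symbol starts with Rpl or Rps and a digit, together with Rpsa, without pseudogene symbols that carry -ps, without the kinases of the Rps6k family and without the Rps19 binding proteins. The rule gave 81 of the 12762 genes of the table, 47 of the large and 34 of the small ribosomal subunit. The annotation classes 79 of them as protein coding and 2, Rps3a2 and Rps3a3, as processed pseudogenes. The row with the symbol Rpl24 carries an identifier that the annotation names Zbtb11, so which transcript it measures is uncertain.

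The cells were B3, a line that models the pre-BI stage. The Ikaros line had been transduced with a retrovirus for haemagglutinin-tagged Ikaros joined to the ERt2 hormone-binding domain and for GFP, and the control line with the ERt2 and GFP vector alone, each kept as a pool of GFP-sorted cells. Both lines received 0.5 uM 4-hydroxy-tamoxifen, which carries the fusion protein into the nucleus, and were collected at 0, 2, 6, 12, 18 and 24 h, with 3 mRNA-seq libraries from separate culture batches for each line and time and 36 in all. The labels list the drug also for the 0 h samples, while the methods describe the 0 h cells as untreated and collected on separate occasions. Replicates 1, 2 and 3 were labelled as batches 1, 3 and 4, with batch 2 in place of 3 at 0 h. These were taken as culture batches.

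A ribosome joins a small subunit, which reads the mRNA, to a large subunit, which forms the peptide bond, and most of their proteins are made in equal numbers from strongly expressed genes. Many of these mRNAs start with a run of pyrimidines, the TOP motif, through which mTOR signalling and Larp1 set how well they are translated, so that cells can change ribosomal protein output without changing the mRNA level. Growing pre-B cells make many ribosomes, and Myc, which Ikaros opposes in this lineage, is known to drive genes of ribosome assembly. A few ribosomal proteins have paralogs that are expressed in particular tissues or states.

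The start of the transcript is shown for 2 members with a TOP run and for 2 pairs of a parent gene and its paralog whose levels parted in these data. Each window holds 10 bases before and 20 bases from the RefSeq start (GRCm38.p6), 5′ to 3′ on the strand of the gene, and capitals mark an unbroken run of at least 5 C or T bases that begins with C at the start.
Rps6, chr4:86857348-86857377, minus strand: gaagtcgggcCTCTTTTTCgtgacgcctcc
Rpl15, chr14:18270967-18270996, minus strand: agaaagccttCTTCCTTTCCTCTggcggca
Rps27, chr3:90213629-90213658, minus strand: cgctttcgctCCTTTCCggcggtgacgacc
Rps27l, chr9:66946076-66946105, plus strand: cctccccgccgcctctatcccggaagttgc
Rpl22, chr4:152325716-152325745, plus strand: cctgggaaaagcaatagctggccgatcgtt
Rpl22l1, chr3:28805498-28805527, plus strand: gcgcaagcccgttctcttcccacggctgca
The run is 9 bases long in Rps6, 13 in Rpl15 and 7 in Rps27, and none begins at the annotated start of Rps27l, Rpl22 or Rpl22l1.

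RefSeq promoter windows from 250 bases before to 50 after the start were found for 59 members, with 71 windows in all, leaving out Rpl24. A pyrimidine run of this kind began at the start in 12 of the 71 windows (16.9%), against 2.51% of all 32851 windows. The Ets motif CCGGAAG, searched on both strands, lay in 35.2% of the member windows and in 8.86% of all. For AAGATGGCG, the core of a YY1 site, the shares were 8.45% and 1.40%, and for the E box CACGTG they were 11.3% and 7.15%. GGGAA, the core bound by Ikaros, lay in 70.4% of the member windows and in 62.7% of all. The 12 members with the run and the 47 without it had median log2 differences between the lines of -0.33 and -0.26 at 18 h, and of 0.10 and -0.01 at 24 h. A run that begins a few bases past the annotated start, as in the windows of Rps27l and Rpl22l1 above, was not counted. The 47 can therefore include TOP mRNAs.

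The values are log2 expression after correction for GC content and transcript length, so they are comparable per length. The base is not stated with the values and was taken as 2, the scale of the method used, so that a difference of 1 is a doubling. The members were among the highest values of the table: 76 of 81 had a mean over all libraries above the 90th percentile (14.4), 38 were among the top 100 genes, and the median member stood at 17.7 against 11.7 for all genes. Rps26 was highest at 20.8, and Rpl3l was lowest at 6.54. Read depth per library is unknown, since no counts were used here, and it limits the precision of the low members most. The longest annotated transcript of each gene had a median length of 1109 bases for the members against 3071 for all genes. It need not be the transcript that the cells express. Of the members 29 host snoRNAs in their introns.

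Ikzf1, the gene of Ikaros, lay between 14.0 and 14.9 in the 18 control libraries and between 19.6 and 20.9 in the 18 Ikaros libraries, at 0 h included. All 10 B lineage markers had a row, among them Cd79a (median 18.5) and Pax5 (16.3) near the top of the table. None of the 5 T cell, 4 erythroid or 4 stromal markers had a row, and of the 5 myeloid markers Itgam and Lyz2 did, at the 5.80th and 7.59th percentile. Their summed level lay between 6.01 and 8.74 in control and between 7.82 and 10.0 in Ikaros libraries (log2). Lyz2 was called higher in the Ikaros line at 0 and 2 h (differences 2.94 and 2.66) and lower from 12 h (-2.37, -2.06 and -2.94 at 12, 18 and 24 h), and Itgam higher from 6 h (2.65, 3.65, 4.52 and 4.24). Their part in the results on the members was not tested.

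Few ribosomal protein mRNAs were called at times when a large share of all genes was. Ikaros and control cells were compared at each time with limma, with p adjusted over all genes and a gene called at an adjusted p under 0.05. At 0 h 2 members were called, against 8.33% of all genes, and at 2 h 3 members, against 19.1%. After 6 h 4 members were called (background 37.3%), after 12 h 20 (45.8%), after 18 h 27 (58.2%) and after 24 h 12 (62.9%). At 0 h 1 was higher and 1 lower (4.61% and 3.72% of all genes), at 2 h 3 were higher and 0 lower (9.18% and 9.88%), and at 6 h 1 was higher and 3 lower (18.1% and 19.2%). The called share of the members, 2.47%, 3.70%, 4.94%, 24.7%, 33.3% and 14.8% in order of time, was below that of all genes at every time. Over the 6 times 41 members (50.6%) were called at least once, against 82.7% of all genes.

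Sizes were small as well. At 24 h 72 of the 81 members differed by less than 0.5 on the log2 scale, as did 38.5% of all genes, and 4 members differed by 1 or more, as did 34.7% of all genes. The 95% interval of the 24 h difference lay wholly between -1 and 1 for 71 members (87.7%, against 41.0% of all genes) and between -0.5 and 0.5 for 34 (42.0%, against 12.1%). The median standard error of a member was 0.17, and it ran from 0.07 to 0.58. The median half-width of the interval was 0.35, so for a typical member the interval of a smaller difference included 0. These intervals are not adjusted over genes, so a call at the adjusted p generally takes a larger difference.

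**Figure D1:**
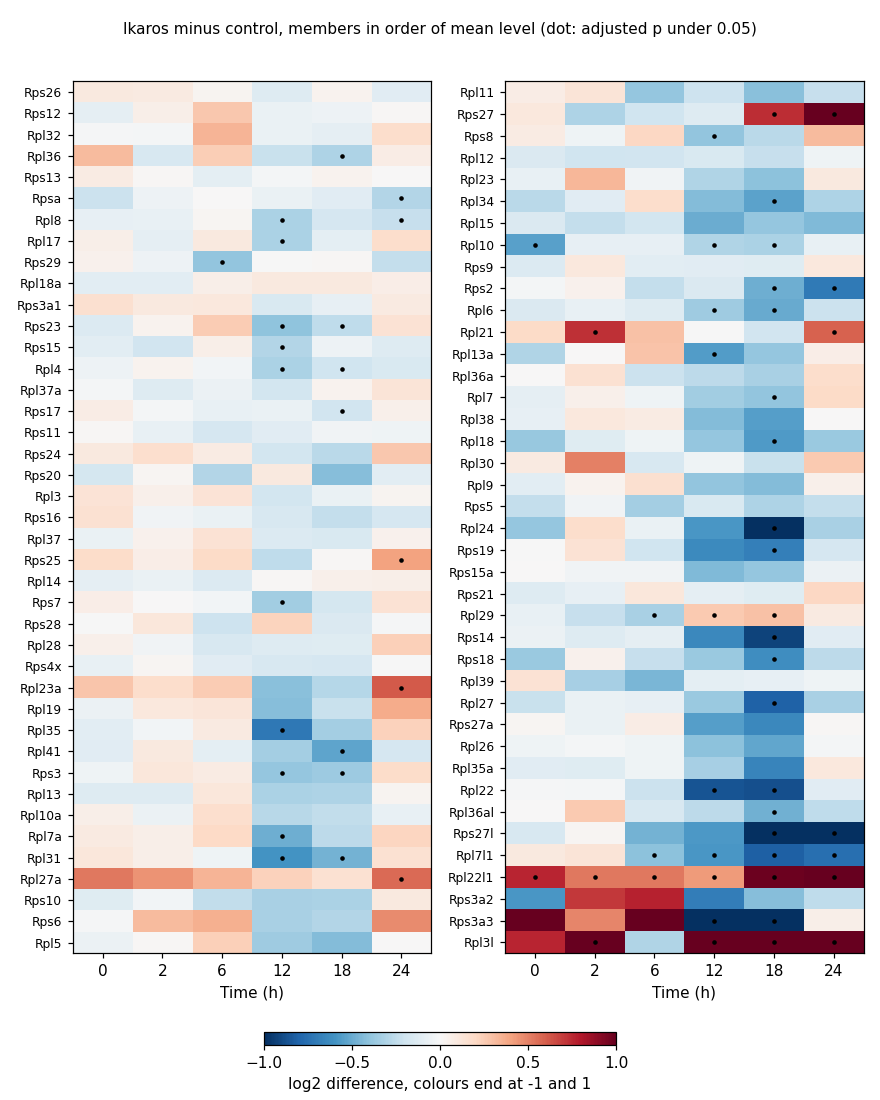
Ikaros minus control in log2 units for the 81 members (rows, in order of mean level from Rps26 to Rpl3l) at the 6 times (columns), with colours ending at -1 and 1 and a dot for an adjusted p under 0.05. Pale blue fills most rows at 12 and 18 h and is largely gone at 24 h, where 12 members are called.

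The median difference of the members was lowest at 12 and 18 h. Over the 81 it was -0.04, 0.01 and -0.04 at 0, 2 and 6 h, -0.30 and -0.27 at 12 and 18 h, and 0.02 at 24 h, while the median over all genes was -0.03 at 0 h and nearer to 0 later. At 12 h 17 of the called members were lower and 3 higher (22.8% and 23.0% of all genes), and at 18 h 23 were lower and 4 higher (29.2% and 29.0%). At 24 h 5 were lower and 7 higher (31.9% and 31.0%). Most of the called members were thus lower at 12 and 18 h, and both directions were about as frequent at 24 h. All 3 Ikaros libraries lay below all 3 control libraries for 28 members at 12 h and for 29 at 18 h (25.4% and 32.4% of all genes), and for 15 at 24 h (36.1%). Of the members called lower, 9 were shared between 12 h and 18 h, which is 52.9% of those of 12 h and 39.1% of those of 18 h.

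**Figure D2:**
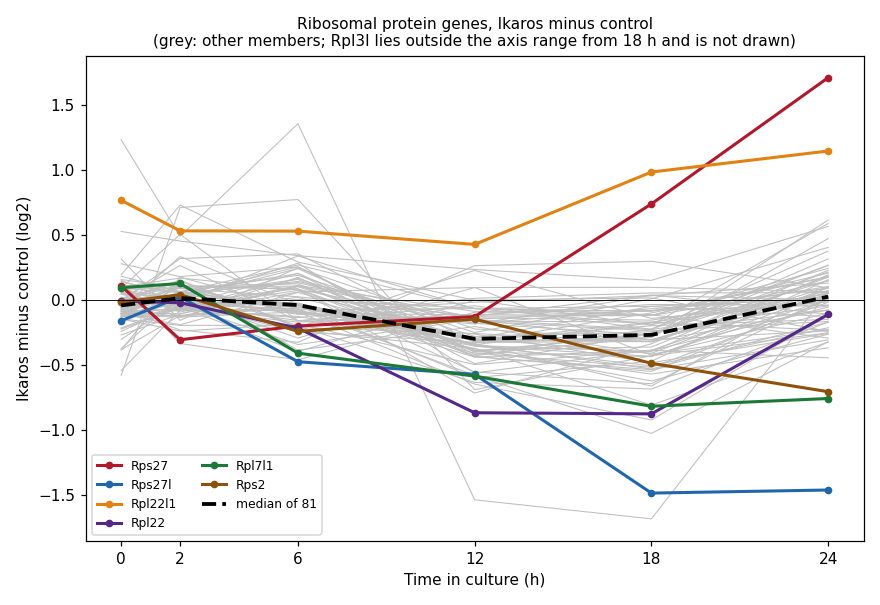
Ikaros minus control (log2) against time for the members other than Rpl3l, with the median of the 81 as a dashed line and 6 named genes in colour. Most grey lines lie below 0 at 12 and 18 h and around 0 at 24 h, when Rps27 and Rpl22l1 lie above the rest and Rps27l, Rpl7l1 and Rps2 below.

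The depth of the dip differed between culture batches. Within batches 1, 3 and 4 the median member difference was -0.03, -0.25 and -0.58 at 12 h and -0.17, -0.35 and -0.22 at 18 h, with 32, 17 and 8 members and then 17, 10 and 21 members above 0. At 24 h it was -0.12, 0.06 and 0.14. Relative to each gene's mean over all libraries, the members of the Ikaros library of batch 4 at 12 h stood at a median of -0.36, with 71 of 81 below, and the 3 control libraries at 18 h stood at 0.01, 0.24 and 0.17. The 12 h count fell from 20 to 6 without replicate 2 and to 7 without replicate 3, the 18 h count from 27 to 6 without replicate 2, and the 24 h count from 12 to 6 without replicate 2. At 0, 2 and 6 h the counts without 1 replicate were 0 to 1, 0 to 2 and 1 to 4. With the library preparation run as a term, though the values had been adjusted for it, the counts at 12 and 18 h were 7 and 16, and the 12 h median without replicate 3 was -0.12.

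Members of a lower level had larger negative differences at 18 h. At that time the median difference was -0.54 for the 24 members with a mean level under 17, -0.29 for the 37 between 17 and 19, and -0.09 for the 20 at 19 or above. Of these classes 11, 8 and 4 members were called lower (29.2% of all genes), above the share of all genes in the lowest class only. Another 3, 1 and 0 were called higher (29.0% of all genes). The bounds of the level classes were chosen after the values were seen. Over the 78 members with a mean above 14, Spearman's rho between level and difference was 0.40, 0.61 and 0.18 at 12, 18 and 24 h, and Pearson's r was 0.30, 0.42 and 0.15. Over all 81, which adds Rpl3l, Rps3a2 and Rps3a3, rho was 0.39, 0.57 and 0.15, but r was -0.02, -0.20 and -0.47, so the sign of r rests on these 3 members. The points share the same libraries, and the median standard error fell with the level, from 0.27 in the lowest class to 0.11 in the highest. With the length of the longest annotated transcript Spearman's rho was -0.18 at 18 h, and with its GC content 0.11. Among 49 pseudogene rows of ribosomal proteins, which the rule leaves out, the median was -0.77, -0.93 and -0.28 at these times, and 58 members have at least 1 pseudogene named after them in the annotation. Members with and without such a pseudogene had medians of -0.31 and -0.26 at 12 h and of -0.26 and -0.36 at 18 h. Only names made of the member symbol and -ps were counted, so copies under other names would be missed. The 23 members without one include Rps3a1, Rps3a2, Rps3a3 and the Rpl24 row. The part of reads from such copies was not tested.

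**Figure D3:**
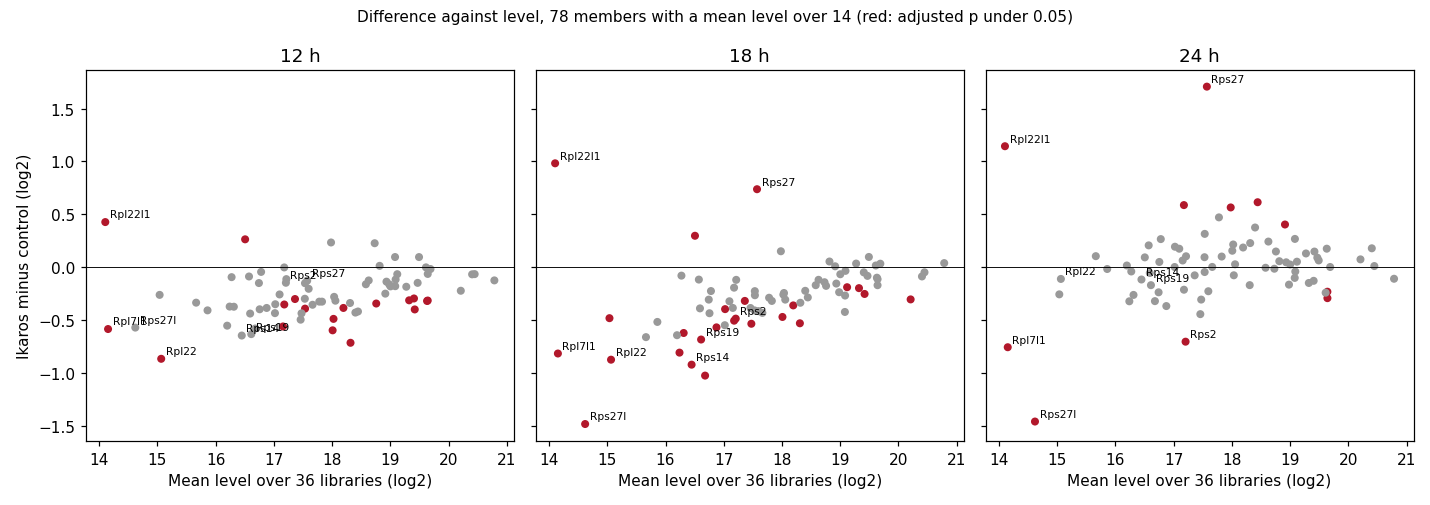
Ikaros minus control (log2) against the mean level over the 36 libraries (log2) for 78 members at 12, 18 and 24 h, with members of an adjusted p under 0.05 in red. At 18 h the points rise from left to right, with a Spearman's rho of 0.61, and at 24 h most lie in a flat band around 0.

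Set against 0 h, the difference between the lines changed for few members. No member was called for a change from 0 to 2 h by limma (3 had an unadjusted p under 0.05, as did 12.9% of all genes), against 3.1% of all genes. From 0 to 6, 12, 18 and 24 h 1, 5, 8 and 6 members were called (15.9%, 29.7%, 43.0% and 48.4% of all genes), and in a joint F test over the 5 times 11 (59.8%). From 2 to 24 h, which uses no 0 h library, 6 were called (47.3%), namely Rps27, Rpl3l and Rpl22l1 upward and Rps27l, Rpl7l1 and Rps2 downward. From 6 to 12 h 9 were called (16.0%), and from 18 to 24 h 1 (2.63%), Rpl3l, while the median change was 0.32 and 70 of 81 members had a positive one. At an unadjusted p under 0.05, 15 members changed from 18 to 24 h, and 16.3% of all genes. Both of these steps were added after the time course had been seen. The counts at 12, 18 and 24 h against 0 h were 0, 2 and 3 without replicate 2, the first was 1 without replicate 3 and 8 without replicate 1, and that at 6 h was 0 without any one replicate. The F test gave 4 without replicate 2 and 7 without replicate 3, the step from 6 to 12 h gave 0 to 2, and the step from 18 to 24 h gave 0 without replicate 1 or 2.

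Within the Ikaros line, 4, 3, 19, 8 and 10 members were called against its 0 h libraries after 2, 6, 12, 18 and 24 h (19.2%, 32.8%, 46.1%, 54.6% and 60.6% of all genes), of which 18 of the 19 at 12 h were lower (22.2% of all genes). Without replicate 2 or 3 the 12 h count was 5 or 6, and without replicate 2 the 18 h count was 5. With the batch number as a block the counts at 2 and 6 h became 22 and 11. This block assumes that a number names the same batch at 0 h as later, which the sources do not state. Within the control line the counts were 0, 2, 0, 1 and 0 (0.047%, 5.1%, 0.0549%, 0.478% and 0.47% of all genes), and that at 6 h was 14 with the block. At an unadjusted p under 0.05 there were 17, 20, 4, 8 and 6 in the control line (7.88%, 28.1%, 5.7%, 14.9% and 11.7% of all genes). The median member change against 0 h was -0.19, -0.07 and 0.00 at 12, 18 and 24 h in the Ikaros line. In the control line it was 0.03, 0.19 and -0.06, with 68 of 81 members above 0 at 18 h. By these medians the control line moved further up at 18 h than the Ikaros line moved down, and it was lower again at 24 h. These comparisons share their 0 h libraries within a line.

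Rps27 and Rps27l, a zinc finger protein of the small subunit and its paralog, moved in opposite directions. Rps27 (ENSMUSG00000090733, chr3:90212522-90213651) read 17.17, 17.14 and 16.86 in the control and 18.44, 19.14 and 18.72 in the Ikaros libraries at 24 h. All Ikaros libraries were higher, by 1.71 ± 0.30 (SE, n = 3), which is 3.26-fold (limma adjusted p = 1.83e-05). At 18 h the control libraries read 17.43, 17.71 and 18.12 and the Ikaros libraries 18.20, 18.49 and 18.79, a difference of 0.74 (adjusted p = 0.0371) that was 0.72 to 0.77 and not called without any one replicate. At 12 h, with a difference of -0.13, the groups overlapped.

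Rps27l (ENSMUSG00000036781, chr9:66946086-66949516), which p53 is known to induce, read 14.74, 14.65 and 14.91 in the control and 13.17, 13.44 and 13.31 in the Ikaros libraries at 24 h. The Ikaros libraries were lower by 1.46 log2 units, that is by a factor of 2.75 (difference -1.46 ± 0.26, adjusted p = 2.77e-05). At 18 h the control libraries read 14.59, 14.90 and 15.57 and the Ikaros libraries 13.38, 13.52 and 13.73 (difference -1.48, adjusted p = 2.66e-05), and at 12 h the groups were already apart at a difference of -0.57 that was not called (adjusted p = 0.0796). Within batches 1, 3 and 4 at 24 h Rps27 differed by 1.27, 1.99 and 1.86 and Rps27l by -1.57, -1.21 and -1.59. The log2 ratio of Rps27 to Rps27l was 2.29 ± 0.29 (SD, n = 3) in control and 5.45 ± 0.22 in Ikaros cells at 24 h, a shift of 3.17 with no overlap (exact permutation p = 0.1, two-sided, the smallest that 3 against 3 allows). Both genes were already apart at 24 h in opposite directions, so the ratios could not overlap and this p adds no support. The permutation also ignored the batch pairing. At 0 h the ratio was 2.48 in control and 2.75 in Ikaros cells, with overlap.

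**Figure D4:**
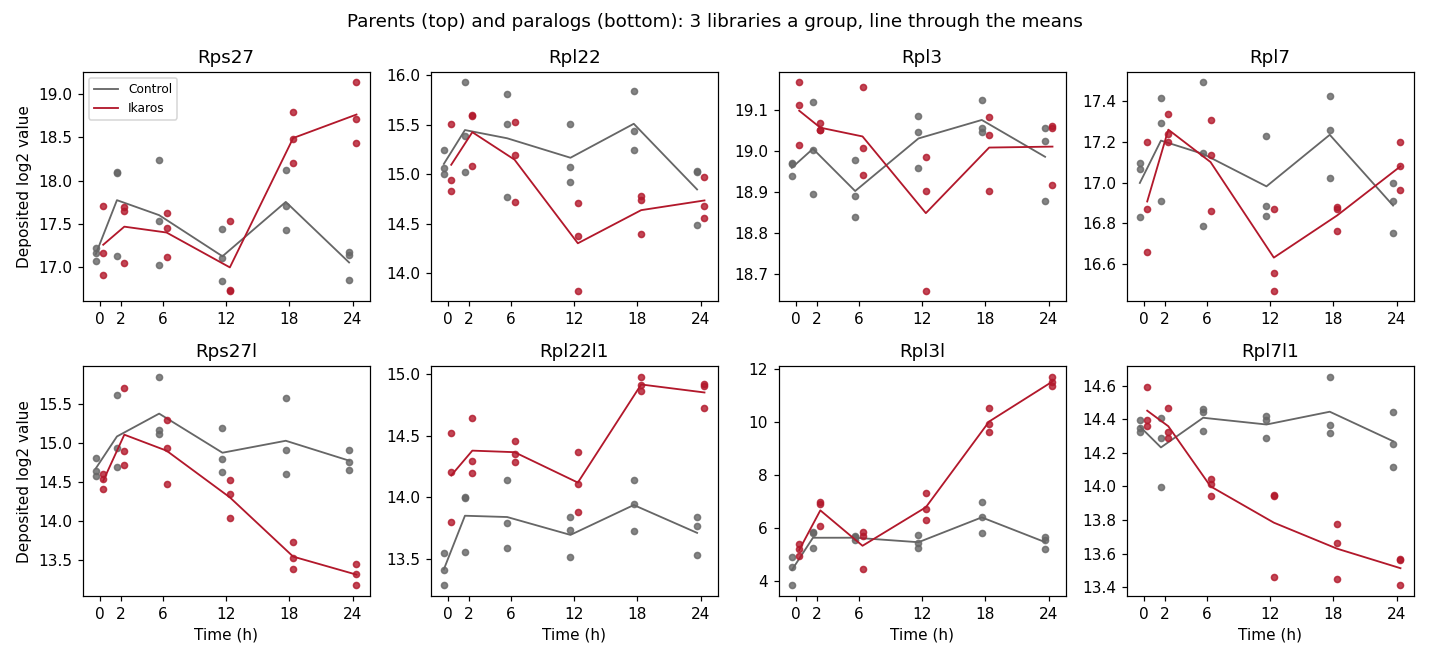
Deposited log2 values of 4 parent genes (top) and their paralogs (bottom) in each library against time, control in grey and Ikaros in red, with lines through the means of 3 libraries. Rps27 rises and Rps27l falls in the Ikaros line from 18 h, Rpl22l1 lies higher in the Ikaros line from 0 h, and Rpl3 stays between 18.7 and 19.2 while Rpl3l climbs to between 11.4 and 11.7.

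Rpl22 and Rpl22l1 encode paralogs of a large subunit protein that also binds RNA outside the ribosome. Rpl22l1 (ENSMUSG00000039221, chr3:28805436-28807424, overlapping Gm33051) was called higher in the Ikaros line at every time. At 0 h it read 13.55, 13.41 and 13.28 in control and 13.80, 14.53 and 14.21 in Ikaros libraries (difference 0.77 ± 0.17, limma adjusted p = 0.00357). The groups did not overlap at 0 h, and the difference was 0.59 without replicate 2 and 0.69 without replicate 3, neither called. The calls at 2, 6 and 12 h were lost without replicate 1 (0.47, 0.44 and 0.21) or replicate 2 (0.42, 0.51 and 0.45), while those at 18 and 24 h were kept without any one replicate. At 24 h the control libraries read 13.77, 13.83 and 13.53 and the Ikaros libraries 14.73, 14.91 and 14.92, a difference of 1.14 ± 0.17, or 2.21-fold (adjusted p = 1.72e-06). The change from 0 to 24 h, 0.38 ± 0.24, was not called (adjusted p = 0.204), whereas the change from 2 to 24 h, 0.61, was (adjusted p = 0.0386), though not without replicate 2 (0.76) or 3 (0.32).

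Rpl22 (ENSMUSG00000028936, chr4:152325742-152334071) was lower at 12 and 18 h. At 18 h it read 15.25, 15.85 and 15.44 in control and 14.40, 14.74 and 14.77 in Ikaros libraries, with all Ikaros libraries lower (difference -0.88 ± 0.28, limma adjusted p = 0.00868), but not called without replicate 2 (-0.76). At 12 h the difference was -0.87 (adjusted p = 0.0123), of which batches 1, 3 and 4 gave -0.21, -0.70 and -1.69, and it was not called without replicate 2 (-0.95) or 3 (-0.46). By 24 h the groups overlapped, at a difference of -0.11 with a 95% interval from -0.68 to 0.46. The log2 ratio of Rpl22l1 to Rpl22 was -1.69 in control and -0.92 in Ikaros cells at 0 h, and -1.57 and 0.28 at 18 h. The groups did not overlap at any of the 6 times, with an exact permutation p of 0.1 at each, the smallest possible. Rpl22l1 alone was apart at each of these times, and the pair was chosen with these values known, so these p-values add no support. At 2 h the ratios of the groups nearly touched, with the lowest Ikaros value at -1.3930 and the highest control value at -1.3938.

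Rpl3l (ENSMUSG00000002500, chr17:24727820-24736143, plus strand), a paralog of Rpl3 known from striated muscle, showed the largest difference of all members. The control libraries read 5.21, 5.55 and 5.65 and the Ikaros libraries 11.52, 11.71 and 11.37 at 24 h, a difference of 6.07 ± 0.34 (limma adjusted p = 2.4e-14). At 18 h the control libraries read 6.43, 5.80 and 6.98 and the Ikaros libraries 9.92, 9.62 and 10.52, a difference of 3.62. The differences at 2, 6 and 12 h were 1.03, -0.30 and 1.32, of which the first and the last were called, the first not without replicate 1 (0.96) or 3 (0.72) and the last not without replicate 1 (0.94). With a mean at the 6.93rd percentile of the table, its control values lie at the low end of the scale, where depth is unknown. Msrb1, which starts 499 bases past the end of Rpl3l on the same strand, differed by 1.00 at 18 h and 1.18 at 24 h, and Ndufb10 on the other side by -0.63 at 24 h. The part of reads from beyond the Rpl3l gene was not tested. Rpl3, which lies beside the catalytic centre of the large subunit, read 19.06, 19.02 and 18.88 in control and 19.06, 18.92 and 19.06 in Ikaros libraries at 24 h, a difference of 0.02 with an interval from -0.15 to 0.20.

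Rpl7l1, a paralog of Rpl7 that is tied to ribosome assembly in the nucleolus, fell early and stayed low. The gene (ENSMUSG00000063888, chr17:46773907-46782672) overlaps Gm26904. At 6 h it read 14.33, 14.46 and 14.44 in control and 13.95, 14.01 and 14.04 in Ikaros libraries, without overlap (difference -0.41, limma adjusted p = 0.0107), a call lost without replicate 1 (-0.42) or 2 (-0.39). The differences at 12, 18 and 24 h were -0.59, -0.82 and -0.76 ± 0.12, the last at an adjusted p of 6.35e-06 with control libraries at 14.25, 14.44 and 14.12 and Ikaros libraries at 13.56, 13.41 and 13.57. It was the only member called for a change of the difference from 0 to 6 h (-0.50 ± 0.17, adjusted p = 0.0491), which no fit without 1 replicate called. Rpl7 itself, a core protein of the large subunit, dipped by 0.40 at 18 h (difference -0.40, adjusted p = 0.0452), a call that no fit without 1 replicate kept, and differed by 0.19 at 24 h, not called.

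Of the remaining paralog pairs, Rpl36al was called at 18 h (difference -0.48, limma adjusted p = 0.0108), though not without replicate 1 (-0.35) or 2 (-0.39), and its partner Rpl36a was called at no time. Rpl10, which joins the large subunit late in assembly, was lower in the Ikaros line at 0 h, at 17.17, 17.08 and 16.80 against 17.56, 17.60 and 17.52 (difference -0.54 ± 0.12, adjusted p = 0.00391). The difference at 24 h was -0.08, and the change between these times, 0.46, was called (adjusted p = 0.0278). Leaving out any 1 replicate ended both calls, with differences of -0.62 to -0.45 at 0 h and changes of 0.34 to 0.53. Rpl10l, Rpl26l1, Rpl39l and Rps4l had no row and were not analysed here.

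In the small subunit, Rps2 had the largest fall at 24 h after Rps27l. Rps2 (ENSMUSG00000044533, chr17:24718116-24721929), a protein at the mRNA entry channel, read 17.23, 17.35 and 17.46 in control and 16.58, 16.66 and 16.69 in Ikaros libraries at 24 h. The groups were apart in all 3 batches, by -0.65, -0.69 and -0.77, and the difference was -0.70 ± 0.11, a 1.63-fold lower level (limma adjusted p = 3.27e-06). At 18 h the difference was -0.49 (adjusted p = 0.000438), or -0.32 and still called without replicate 3, and at 12 h -0.15 with overlapping groups. The gene overlaps Snhg9, whose difference at 24 h was -2.29 (adjusted p = 0.0386) and at 18 h 0.97.

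Rpsa, also known as the laminin receptor precursor, read 19.78, 19.65 and 19.80 in control and 19.50, 19.34 and 19.51 in Ikaros libraries at 24 h (difference -0.29 ± 0.08, limma adjusted p = 0.00189). Rps25, used by viral internal entry sites, was higher at 24 h by 0.40, at 19.06, 19.07 and 19.23 against 18.77, 18.90 and 18.48 (adjusted p = 0.0349). In both genes the gap between the groups was narrower than the range within the control group, Rpsa was not called without replicate 2, and Rps25 was not called without any one replicate (0.23 to 0.52). Rps6, the substrate of S6 kinase, read 17.60, 17.72 and 17.03 in control and 17.67, 17.83 and 18.26 in Ikaros libraries at 24 h, a difference of 0.47 that was not called (adjusted p = 0.0979). Rps19, the gene most often mutated in Diamond-Blackfan anaemia, was called at 18 h (difference -0.68, adjusted p = 0.0326) with control libraries at 16.83, 17.30 and 16.95 and Ikaros libraries at 16.13, 16.33 and 16.57, though not without replicate 1 (-0.68) or 2 (-0.54). Rps27a, made as a fusion with ubiquitin, was called at no time, and its interval at 24 h ran from -0.71 to 0.74.

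In the large subunit, the rises at 24 h apart from Rpl22l1 and Rpl3l were small. Rpl23a, which lies at the exit of the peptide tunnel, read 18.19, 18.24 and 17.56 in control and 18.35, 18.64 and 18.84 in Ikaros libraries (difference 0.61 ± 0.24, limma adjusted p = 0.0316). Rpl21 differed by 0.59 (adjusted p = 0.044) and Rpl27a by 0.56 (adjusted p = 0.0329). Without replicate 3 the difference of Rpl23a was 0.28 and that of Rpl21 0.36, neither called. Rpl23a was also not called without replicate 2 (0.72), Rpl21 without replicate 1 (0.74) or 2 (0.65), and Rpl27a without replicate 1 (0.63) or 2 (0.45). Rpl21 was also higher at 2 h, at 17.97, 17.60 and 17.81 against 16.87, 16.85 and 17.48 (difference 0.73, adjusted p = 0.0422), a call lost without replicate 1 (0.54) or 2 (0.72). Rpl8, near the catalytic centre, was lower by 0.23 log2 units at 24 h (difference -0.23 ± 0.09, adjusted p = 0.0355) and was not called without any one of the replicates.

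Rpl5 and Rpl11, which bind Mdm2 together with a ribosomal RNA when assembly fails, were called at no time. At 24 h Rpl5 read 17.56, 17.93 and 17.27 in control and 17.57, 17.42 and 17.77 in Ikaros libraries, with a difference of 0.00 (interval -0.41 to 0.41). Rpl11 read 17.45, 17.53 and 17.69 against 17.08, 17.54 and 17.36, with a difference of -0.23 (interval -0.70 to 0.24). Both sets overlapped. At 18 h the differences were -0.43 and -0.42.

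At 6 h the called members beside Rpl22l1 and Rpl7l1 were Rpl29 (difference -0.33) and Rps29 (-0.40), the first not called without replicate 1 (-0.26) or 3 (-0.32) and the second not without replicate 1 (-0.35) or 2 (-0.47). Rpl29 was higher later, by 0.26 and 0.30 at 12 and 18 h (limma adjusted p = 0.0418 and 0.0173), the first not called without replicate 1 (0.13) or 3 (0.21) and larger without replicate 2 (0.45), and the second not without replicate 2 (0.31) or 3 (0.19). At 18 h it read 16.54, 16.33 and 16.20 in control and 16.66, 16.59 and 16.72 in Ikaros libraries, which was one of 4 rises at that time, with Rps27, Rpl22l1 and Rpl3l. Rps3a3, annotated as a pseudogene, had the largest fall at 18 h (difference -1.68 ± 0.58, adjusted p = 0.0154, not called without replicate 2 at -1.58) and overlaps Pde4d. Its Ikaros libraries ranged from 10.6 to 14.1 over the time course, the widest standard error of the members.

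The subunits were counted separately. At 12 h 11 of 47 large subunit members were lower and 3 higher, and 6 of 34 small subunit members were lower and 0 higher (22.8% and 23.0% of all genes), with medians of -0.32 and -0.17. At 24 h the medians were 0.05 and -0.00, with 5 higher and 2 lower in the large and 2 higher and 3 lower in the small subunit (31.0% and 31.9% of all genes). Of 8 proteins around the tunnel exit 4 were lower at 12 h (median -0.42) and none at 24 h, where 1 was higher and the median was 0.16. Of 14 proteins of the small subunit head 4 were lower at 18 h, and of 16 genes mutated in Diamond-Blackfan anaemia 4 were lower and 1, Rps27, higher (29.2% and 29.0% of all genes). Except for the tunnel exit at 12 h, these shares lay near or below those of all genes. The differences between these groups were not tested.

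The stalk proteins and some other components of the ribosome lie outside the rule. Of the stalk proteins, Rplp0 differed by -0.09 and Rplp2 by -0.32 at 24 h, not called, and Rplp1 by -0.31 (limma adjusted p = 0.0312). Gnb2l1, the scaffold protein Rack1, was lower (difference -0.43, adjusted p = 0.00603). Fau differed by 0.19, not called.

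Most genes that build ribosomes were lower in Ikaros cells at 24 h. Of 46 ribosome assembly factors 45 were lower and 0 higher at 24 h (31.9% and 31.0% of all genes), with a median difference of -1.75, and Mdn1 and Rrp1b stood at -3.05 and -2.79. Of 14 genes of RNA polymerase I and its factors, which transcribe the ribosomal RNA, 11 were lower and 2 higher (median -0.67), with Polr1b at -3.06 and Cd3eap at -2.08. Of 6 chaperones that escort new ribosomal proteins 4 were lower and 1 higher (median -1.27), with Grwd1 at -2.75 and Heatr3 at -2.37. Myc, which is known to drive genes of ribosome assembly, was at -2.52, and its part in these differences was not tested. The median of the 81 members was 0.02. The difference between these lists and the members was not tested.

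The assembly factors stood at a median of -0.58, -1.17 and -1.61 at 6, 12 and 18 h. The list of mitochondrial ribosomal proteins was taken by symbol and has 79 rows, among them the pseudogene symbols Mrps36-ps1, Mrpl23-ps1 and Mrpl48-ps. Of these rows 28, 33, 56 and 57 were lower at 6, 12, 18 and 24 h (19.2%, 22.8%, 29.2% and 31.9% of all genes). At 24 h 2 were higher (31.0% of all genes) and the median was -0.72, with Mrpl52 at -2.27 and Mrps25 at -2.07. Among 14 other TOP mRNAs 6 were lower and 3 higher at 24 h (median -0.11), with the nucleolar protein Npm1 at -1.04 and the elongation factor Eef1g at -0.86. Of 14 genes that control TOP mRNAs 8 were lower and 0 higher (median -0.75), with Eif4ebp1 at -2.86 and Eif4e at -1.77. Among 8 genes of ribosomal stress and the p53 response 4 were lower and 2 higher, with Trp53 at -0.93 and Mdm2 at 0.66. Among the 49 ribosomal protein pseudogenes 6 were lower and 1 higher, with Rpl10-ps3 at -2.74 and Rpl15-ps3 at -2.20. Of all genes 31.9% were lower and 31.0% higher at 24 h, so these pseudogenes were called less often than all genes in both directions. Fewer cells of a type and less RNA per cell cannot be told apart in such bulk libraries, and since the values are relative within a library, a change of total RNA would not be seen.

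**Figure D5:**
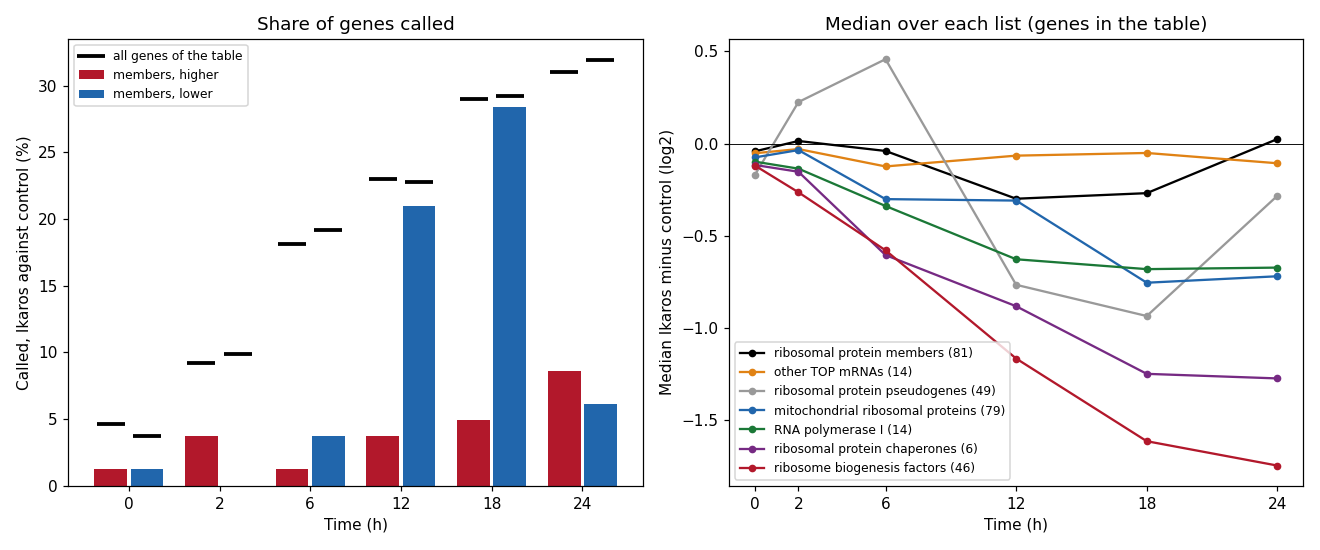
Left, percentage of the 81 members called higher (red) and lower (blue) in Ikaros cells at each time, with black marks for all genes of the table; right, median Ikaros minus control (log2) of 7 gene lists against time. The members lie below the marks at every time and end at 0.02, while the assembly factors end at -1.75.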

How the data were processed

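The log2 values were deposited as 1 table of 36 mRNA-seq libraries, 3 for each of 2 lines at 6 times. The authors trimmed the reads, aligned them to mm10 with TopHat2, keeping unique best hits, counted them with HTSeq, normalized for GC content and gene length with cqn, removed the effect of the library preparation run with ComBat. The lowest deposited value is exactly 1, which a shift of the scale would give, though the methods name none. Libraries were strand-specific (dUTP), but tool versions, the strand setting of the counting and the base of the log were not given in the sources used here, and the base was taken as that of cqn. No counts were used, so the depth reached per library is unknown, and reads of near-identical copies cannot be assigned here.

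One mean per group was fitted to all 12762 genes by limma (version 3.58.1, R version 4.3.3), with two-sided moderated tests and Benjamini-Hochberg adjustment over the whole table, calling genes with an adjusted p below 0.05. Fits were checked on simulated data. Lists were summarised as counts and medians without a test, exact permutation tests used scipy 1.17.1, and figures matplotlib 3.10.9. Annotation came from GENCODE (GRCm38, the authors' build) and sequences from RefSeq; 22 members, Rpl24 included, had no promoter window used here. Alternatives were a batch block, a library preparation term, 2 rescalings, a filter at the 25th percentile, a GC and length trend, other eBayes settings, fewer groups and leaving out each replicate.

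The members, lists and tests were chosen with earlier results of these data known. Named genes were the 5 largest rises and falls among called members with separate groups at 24 h, the 3 largest each way at 0 and 2 h, paralogs and their parents, Rpl5, Rpl11, Rps6, Rps19, Rpsa and Rps27a, members called against the majority, the 3 largest changes each way from 0 to 24 h, and the 2 largest differences of each other list with Myc, Ikzf1 and other ribosome components. Rpl27a, Rps25, Rpl29, Rps29, Rps3a3, Rpl15 and the neighbours of Rpl3l and Rps2 were added after their values were seen.

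The labels give a batch number, which same-numbered libraries of both lines share at each time, so these were taken as paired. Across times replicate 2 is another batch at 0 h than later, so the block was the batch and not the replicate number. Their deviations from the group means correlated at -0.06 to 0.51 over 18 pairs (median 0.13, 12 above 0.1). Libraries of 1 line come from 1 pool of cells, so p-values measure the spread between cultures of that pool.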

Additional observations from a re-analysis of the deposited data

Results flagged for a closer look

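The difference between Ikaros and control cells changed with time for a minority of the members, each by a limma test of the change itself (adjusted p under 0.05). Against 0 h, 1, 5, 8 and 6 members had changed after 6, 12, 18 and 24 h, and 11 in the joint F test. Between 2 and 24 h 6 had changed, between 6 and 12 h 9, and between 18 and 24 h 1. The shares of all genes called in these tests were higher throughout, from 2.63% to 59.8%.

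From 0 to 24 h the difference rose for Rpl3l by 5.31 ± 0.48 (limma adjusted p = 9.2e-10), for Rps27 by 1.60 ± 0.42 (adjusted p = 0.0027) and for Rpl10 by 0.46 ± 0.17 (adjusted p = 0.0278). It fell for Rps27l (-1.30 ± 0.37, adjusted p = 0.00523), Rpl7l1 (-0.85 ± 0.17, adjusted p = 0.000212) and Rps2 (-0.69 ± 0.16, adjusted p = 0.000615). The changes of Rpl3l, Rps27 and Rps2 were also called after leaving out any 1 replicate, that of Rps27l was not without replicate 1 (-1.19) or 2 (-1.45), that of Rpl7l1 not without replicate 2 (-0.64) and that of Rpl10 only with all 3 replicates. The change of Rpl10 starts from a lower value of the Ikaros line at 0 h. Groups of 3 libraries were too small for a test of single outlying libraries.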

How the results depend on the processing

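Counts of called members moved more than directions did. With the library preparation run as a term, the counts for Ikaros against control at 0, 2, 6, 12, 18 and 24 h were 0, 0, 0, 7, 16 and 7, those for the change from 0 to 6, 12 and 18 h were 0, 3 and 2, those from 6 to 12 h and 18 to 24 h were 0 and 0, those in the Ikaros line at 2 and 6 h were 1 and 0, and those in the control line at 6 and 18 h were 0 and 0. With only the compared groups, which leaves fewer libraries to estimate the spread, the line comparisons gave 1, 0, 0, 4 and 13 at 0, 2, 6, 12 and 18 h, the steps from 6 to 12 h and 18 to 24 h 1 and 0, the Ikaros line at 2, 6 and 12 h 1, 1 and 9, and the control line at 6 and 18 h 0 and 0. With the replicate block the Ikaros line gave 22 and 11 at 2 and 6 h and the control line 14 at 6 h. It moved no other count by over 1.5 times. Quantile normalization gave 3 for 0 to 12 h, 5 for 6 to 12 h and 0 in the control line at 6 h. Removing the GC and length trend gave 18 in the F test and 1 and 1 at 6 h in the Ikaros and control lines, removing low values 0 for 18 to 24 h and 1 and 0 in the control line at 6 and 18 h, and the trend and robust setting 1 in the control line at 6 h. The filter of low values leaves out Rpl3l, which was among the called members in the 3 comparisons whose counts it lowered. For the other moves the cause was not tested. Leaving out 1 replicate gave 0 to 1, 0 to 2, 1 to 4, 6 to 17, 6 to 20 and 6 to 10 for the line comparisons in order of time. It gave 0, 0 to 8, 2 to 8 and 3 to 5 against 0 h at 6, 12, 18 and 24 h, 0 to 2 for 6 to 12 h, 0 to 1 for 18 to 24 h, 4 to 9 in the F test, 1 to 2, 0 to 7, 5 to 20 and 5 to 11 in the Ikaros line at 2, 6, 12 and 18 h, and 0 in the control line at 6 and 18 h. Leaving out Rps3a2, Rps3a3 and Rpl24, an alternative chosen after seeing the data, moved no count by over 1.5 times and no median beyond the spread between batches.

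The median member difference moved to 0.055 at 2 h with the preparation term and to 0.0036 at 6 h with the GC and length trend removed. Without 1 replicate it ran from -0.11 to 0.032 at 0 h, from -0.39 to -0.12 at 12 h and from -0.054 to 0.074 at 24 h. Values that changed sign were not called with all libraries. The differences without 1 replicate crossed 0 at 2 h for Rps27l -0.065 to 0.14, Rpl7l1 -0.045 to 0.25, Rps2 -0.00582 to 0.072, Rpsa -0.15 to 0.0092, Rpl23a -0.029 to 0.37, Rpl3 -0.000861 to 0.11, Rpl7 -0.065 to 0.12, Rpl22 -0.14 to 0.14, Rpl36a -0.025 to 0.29, Rpl5 -0.16 to 0.14, Rps19 -0.017 to 0.25 and Rps27a -0.28 to 0.13, and at 24 h for Rpl3 -0.054 to 0.090, Rpl22 -0.41 to 0.068, Rpl36a -0.043 to 0.36, Rpl5 -0.25 to 0.26 and Rps27a -0.080 to 0.16. The preparation term turned Rpl22 at 2 h (0.11) and Rpl5 (-0.056) and Rps27a (-0.10) at 24 h, quantile normalization Rpl5 at 2 h (-0.020) and Rps27a at 24 h (-0.013), and the GC and length trend Rpl10 at 24 h (0.064). Of the single genes named, 117 calls under an alternative were lost without a change of direction, mostly without 1 replicate or with the preparation term. The 24 h calls of Rps27, Rps27l, Rpl22l1, Rpl7l1 and Rps2 held under all of these alternatives. That of Rpl3l held under all but the filter of low values, which leaves the gene out. Limits are 3 libraries a group, 1 pool of cells per line, 0 h cells from other occasions and no counts, so sampling error cannot be set apart from the spread between cultures.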
